A study of Mus musculus with 13 samples.

Results

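Lysosomal hydrolases, lysosomal membrane proteins and subunits of the vacuolar proton pump (V-ATPase) were followed as messenger RNA across mouse melanocytes and the melanocytic lesions that arise from them. The set has 45 genes, and all 45 were found among the 19937 genes measured. They were listed for what they encode, but with earlier results of these data known. Each gene was read from a probe set that the platform table assigns to it alone, and where a gene had several such sets the set brightest on average across the 13 arrays stood for it. The members comprise 9 cathepsins, 6 membrane proteins, 10 glycosidases and sulfatases, 5 lipid hydrolases and their helpers, the tripeptidyl peptidase Tpp1, and 14 subunits or accessory proteins of the proton pump.

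Expression was measured on 13 Affymetrix arrays, 1 per sample, from mice in which Braf, Cdkn2a or Lkb1 is altered, and the groups are named by the altered genes. BrafV600E, named in the series title, is an activated kinase of the MAPK pathway. Cdkn2a encodes cell cycle inhibitors that are lost in many melanomas, and Lkb1, whose gene symbol is Stk11, is a kinase that activates AMPK and thereby restrains mTORC1. There were 3 groups of FACS-purified melanocytes: Cdkn2a/Braf at day 19, before growth arrest according to the labels (2 arrays), Cdkn2a/Braf at day 50, after growth arrest (2 arrays), and Cdkn2a only at day 19, with wild-type Braf (2 arrays). The other 3 groups were tissue that had not been cultured: Cdkn2a/Braf melanoma (2 arrays), melanoma that also has the Lkb1 alteration, named Cdkn2a/Braf/Lkb1 (2 arrays), and melanocytic proliferations of Lkb1/Braf mice, which were pooled (3 arrays). All groups carry the Cdkn2a alteration apart from the proliferations, and all carry the Braf allele apart from the Cdkn2a only melanocytes. The sources used here do not give strain, sex, the promoter that drives recombination or the age of the mice with lesions. The labels call the samples of a group biological replicates.

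Lysosomes are acidic compartments in which proteins, glycans and lipids delivered by endocytosis and autophagy are broken down. The V-ATPase acidifies them: its V1 sector in the cytosol hydrolyses ATP, and its V0 sector in the membrane carries the protons across. Cathepsins are lysosomal proteases, LAMP proteins line the inner face of the membrane, and NPC1 and NPC2 hand cholesterol out of the lumen. mTORC1 is activated on the lysosome surface by a machinery that includes the V-ATPase, and it holds the transcription factors TFEB and TFE3 in the cytosol. In the nucleus those factors, which are relatives of the melanocyte factor MITF, bind the CLEAR element, an extended E-box found near the start of many lysosomal genes. Pigment cells also make melanosomes, organelles related to lysosomes that share several of these proteins.

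The E-box core of the CLEAR element was looked for in RefSeq promoter windows of build GRCm38.p6, each of 300 bases with 250 before the transcription start and 50 after it. A window was found for 36 of the 45 members, with 39 windows in all. TCACGTGA, which reads the same on both strands, lay in the windows of 8 members: Ctsa, Ctsd, Cln3, Gla, Mcoln1, Atp6v0d1, Atp6v0e and Atp6v1a. These made up 8 of the 39 member windows, against 0.97% of all 32851 windows. The stretches below are shown because they hold this motif upstream of the start in genes of 4 different roles, and the capitals mark the motif.
Ctsa: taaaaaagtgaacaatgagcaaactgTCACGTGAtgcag
Ctsd: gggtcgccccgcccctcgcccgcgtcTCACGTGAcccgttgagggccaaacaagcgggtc
Cln3: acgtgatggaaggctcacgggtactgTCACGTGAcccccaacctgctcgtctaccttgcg
Mcoln1: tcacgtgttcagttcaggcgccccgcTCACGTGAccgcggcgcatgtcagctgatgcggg
Gla: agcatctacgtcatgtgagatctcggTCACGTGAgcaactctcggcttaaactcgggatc
Atp6v1a: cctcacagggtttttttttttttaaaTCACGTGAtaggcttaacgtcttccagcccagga
The Ctsa stretch is chr2:164833734-164833772 on the plus strand, with the motif starting 13 bases before the transcription start. The Ctsd stretch is chr7:142387893-142387952 on the minus strand, with the motif starting 99 bases before the start. The Cln3 stretch is chr7:126583325-126583384 on the minus strand, 122 bases before. The Mcoln1 stretch is chr8:3500447-3500506 on the plus strand, 46 bases before. The Gla stretch is chrX:134601167-134601226 on the minus strand, 195 bases before, and a further copy of the motif begins 228 bases before the Gla start. The Atp6v1a stretch is chr16:44139358-44139417 on the minus strand, 132 bases before. The shorter core CACGTG, which contains neither flank and is found within every TCACGTGA, lay in the windows of 17 members and in 7.15% of all windows. CATGTG, searched on both strands, lay in the windows of 8 members and in 14.15% of all windows.

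Levels are given as log2(intensity + 1), and differences are on that scale with their standard error (SE). Differences were called at an adjusted p under 0.05 after Benjamini-Hochberg correction over all 19937 genes. The lower quartile of all genes lay between 5.18 and 5.56 in the 13 arrays, so a level near that value is dim, and a difference from it understates the change. Arrays differed in ways that bear on what follows. Replicates of the day 50 group lay farther apart, with an SD of 0.703 for their log2 difference over genes, against 0.271 to 0.404 in the other groups. The interquartile range over genes was 1.93 to 1.94 at day 50 and 2.00 to 2.11 in the proliferations, against 2.45 to 2.89 in the other 4 groups, and lysosomal genes lie mostly above the median. A difference between a wide and a narrow array therefore depends on how arrays are scaled, and members called under median centring, quantile normalization and a common interquartile range alike are named as such.

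The targeted genes and the cell types were checked in the same arrays. Stk11 averaged 8.11 in Cdkn2a/Braf/Lkb1 melanoma and 8.76 in Cdkn2a/Braf melanoma (difference -0.65, SE 0.39, adjusted p = 0.396), and Cdkn2a group means lay between 6.23 and 6.59. At day 19 Braf transcript differed by -0.47 in melanocytes with the Braf allele from those without it (adjusted p = 0.248), and its difference at day 50 from day 19 was -0.72 (adjusted p = 0.00328). Where the probes lie relative to the altered alleles is not known, so these values check the labels little. The summed intensity of 8 melanocyte markers was 41690 to 45740 in the 4 day 19 arrays, 23800 to 30530 at day 50, 3224 to 3631 in the proliferations and 436 to 773 in the melanomas. The tyrosinase gene Tyr, needed for pigment, was at 3.99 to 4.45 in the 4 melanoma arrays, Tyrp1 at 4.63 to 5.77 and Dct at 4.78 to 5.95, so these 3 genes of pigment synthesis were dim in tissue labelled melanoma, while Mlana was at 6.49 to 6.98 and Sox10 at 5.97 to 8.13. In bulk samples fewer cells of a type and less RNA per cell cannot be told apart.

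Expression of the set was highest in the young sorted melanocytes. In 34 of the 45 members the highest of the 6 group means was a day 19 group, 21 times Cdkn2a only and 13 times Cdkn2a/Braf, against 23.2% of all genes. The lowest mean was at day 50 for 19 members and in the proliferations for 17. For the proliferations, whose arrays were also narrow, the share of all genes and the other scalings were not examined. The count of 17 is therefore not read as a trait of the set. Of all genes 17% were lowest at day 50, and the member count was 14 under median centring (16.6% of all genes), 17 under quantile normalization (17.8%) and 9 with a common interquartile range (19.3%). With other scalings of the arrays the count of members highest at day 19 was 35 under median centring, 32 under quantile normalization and 27 with a common interquartile range, where all genes gave 33.8%, 27.3% and 36.1%. A difference among the 6 groups was called for 36 of 45 members by limma's moderated F, against 57.9% of all genes. The 9 members without one were Ctsd, Ctsf, Gaa, Naglu, Sgsh, Arsa, Psap, Lipa and Atp6v0b.

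**Figure D1:**
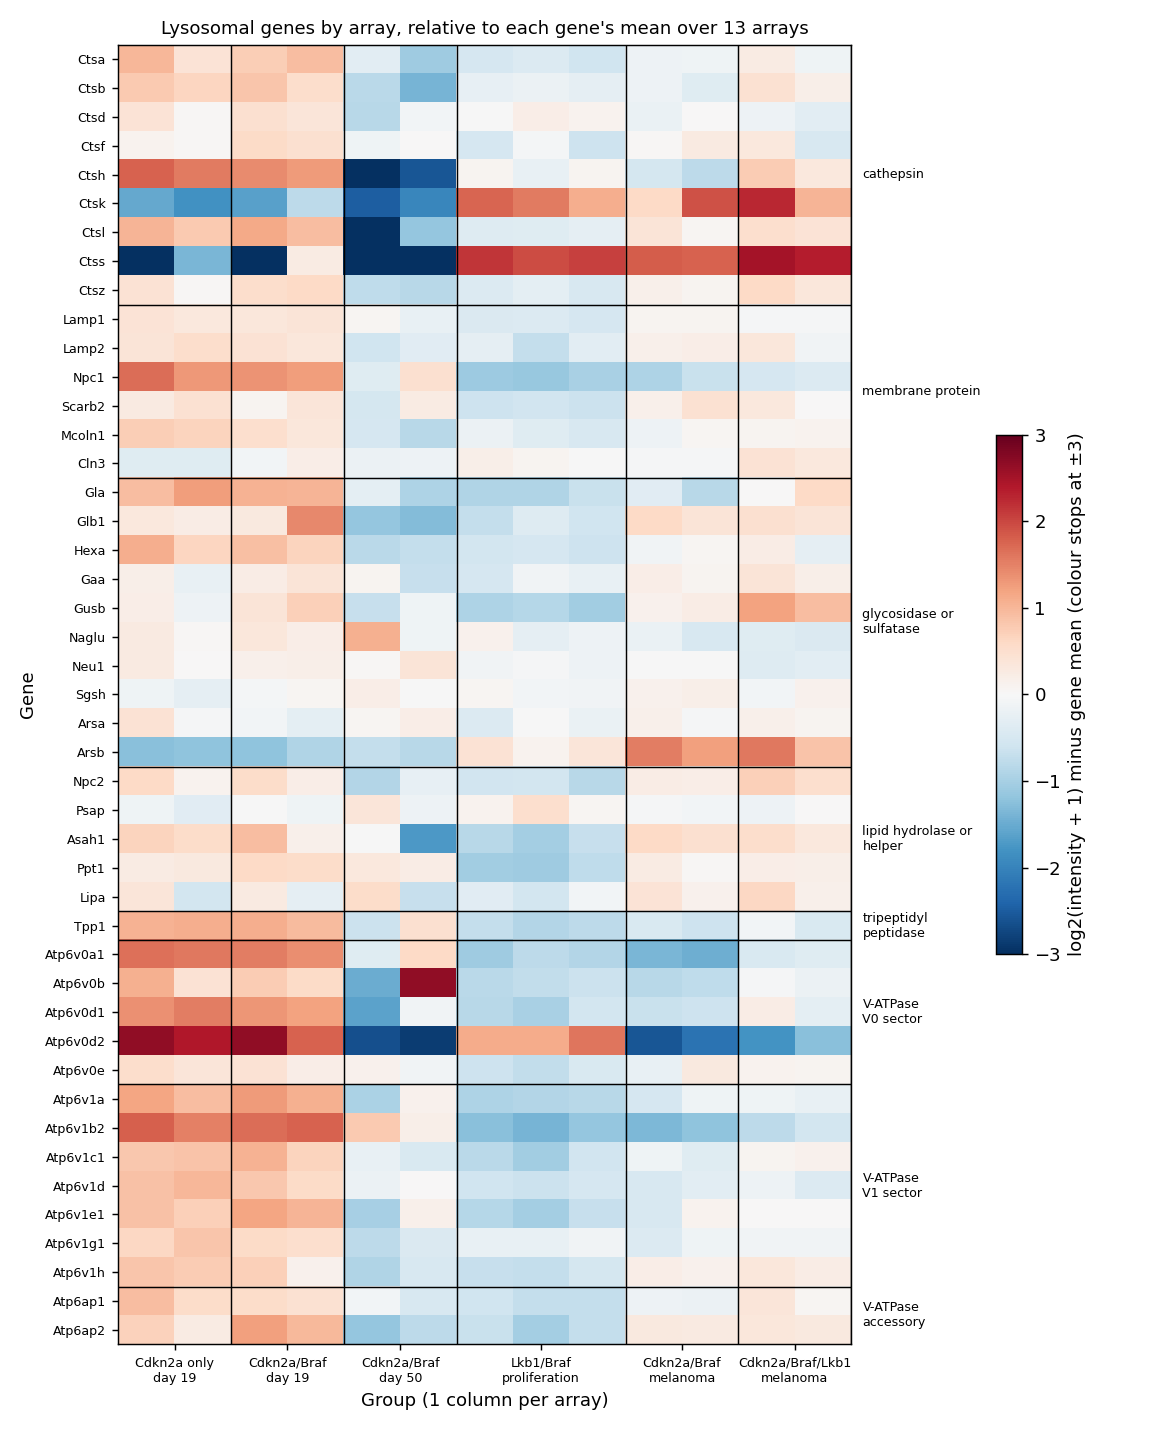
Level of each of the 45 genes (rows, by role) on each of the 13 arrays (columns, by group), as log2(intensity + 1) minus the gene's mean over all arrays, with the colour scale stopping at 3 in either direction. Most rows are warm in the 4 day 19 columns, and Ctsk, Ctss and Arsb run the other way, with their high values in the 7 tissue arrays.

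All 4 day 19 arrays lay above all 7 tissue arrays for 23 of 45 members, where 8.41% of all genes showed that pattern. Under the other scalings the count was 28, 23 and 21, against 16.8%, 10.8% and 15.9% of all genes. The 23 include 11 of the 14 proton pump genes. Atp6v1b2, the ATP-binding subunit of the V1 sector found in most tissues, was at 11.17 to 11.44 in the day 19 arrays and at 8.25 to 9.11 in tissue. Npc1, the membrane cholesterol exporter, was at 10.81 to 11.23 and at 8.41 to 9.15. Ctsk, Ctss and Arsb were the 3 members with every day 19 array below every tissue array (7.78% of all genes), under each scaling tried. Age, sorting and tissue differ together between these groups and cannot be told apart.

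The comparison of Cdkn2a/Braf melanocytes at day 50 with the same genotype at day 19 sets cells before and after growth arrest side by side. Age differs along with growth arrest, and no day 50 group without growth arrest was measured, so they cannot be told apart. Of the 45 members 29 were lower at day 50 and 0 higher, against 14.5% of all genes lower, 11.1% higher and 25.6% called in all. In 35 members both day 50 arrays lay below both day 19 arrays (24.8% of all genes) and in 2 above (45.9%). The median difference of the members was -1.09, and that of all genes was 0.17. Most members are bright, and brighter genes as a whole were lower at day 50. Of the 9968 genes above the median level, fitted alone, 2714 were lower and 695 higher, with a median of -0.26. Of the 44 members among them 29 were lower and 0 higher, with a median of -1.10. The number of members called lower was 29 under median centring, 19 under quantile normalization and 13 with a common interquartile range, which called 4 members higher. It was 15 with only the 6 sorted arrays in the fit and 5 with only the 4 arrays compared, where fewer arrays estimate the spread. The 12 members called lower under every scaling were Ctsa, Ctsb, Ctsh, Ctsl, Ctsz, Gla, Glb1, Hexa, Mcoln1, Atp6v0d1, Atp6v0d2 and Atp6ap2, and these also stayed called when any single array was left out.

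Cathepsins made up 5 of those 12. Ctsh, an aminopeptidase-type cysteine cathepsin, was at 10.30 and 10.15 at day 19 and at 5.73 and 6.30 at day 50. Both day 50 arrays lay far below both day 19 arrays, close to the dim end of the scale. The fall was 4.21 on the log2 scale (SE 0.22, adjusted p = 1.14e-05), an 18.5-fold lower level. Ctsl, a cysteine endopeptidase, was at 12.46 and 12.23 at day 19 and at 8.28 and 10.15 at day 50. The day 50 replicates lay far apart from each other, yet neither reached the day 19 range (difference -3.13, SE 0.44, adjusted p = 0.00107). Ctsb, the most widely studied cysteine cathepsin, was at 11.56 and 11.27 and then at 9.93 and 9.34 (difference -1.78, SE 0.20, adjusted p = 2.66e-04). Ctsa, a carboxypeptidase that also protects beta-galactosidase and neuraminidase, fell by 1.53 (SE 0.25), and Ctsz, a carboxypeptidase, fell by 1.36 (SE 0.16). Ctsd, the main aspartic protease, was called lower (-0.87, SE 0.23, adjusted p = 0.0224), but its difference was 0.36 with a common interquartile range. Ctsf, Ctsk and Ctss were not called, with differences of -0.58, -1.01 and -1.53.

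Among the membrane proteins 4 of 6 were called lower, against 14.5% of all genes, but only the call of Mcoln1 held under each scaling. Their median was -0.64, and 0.09 with a common interquartile range. Mcoln1, the calcium channel of the lysosomal membrane, was at 8.49 and 8.35 at day 19 and at 7.50 and 7.15 at day 50 (difference -1.09, SE 0.16, adjusted p = 0.00121). The groups did not overlap, and the call held under each scaling. Npc1 fell by 1.25 (SE 0.24, adjusted p = 0.00554), a call that ended with a common interquartile range (-0.30). Lamp1 and Lamp2, the most abundant proteins of the membrane, differed by -0.43 and -0.86, and with a common interquartile range by 0.67 and 0.22, so their direction depended on the scaling. Scarb2, the receptor that carries glucocerebrosidase to lysosomes, and Cln3, a membrane protein mutated in Batten disease, were not called.

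Enzymes that strip sugars and sulfates from glycans divided by gene. Glb1, the beta-galactosidase whose activity is used as a marker of senescent cells, was at 7.83 and 8.99 at day 19 and at 6.40 and 6.26 at day 50 (difference -2.08, SE 0.29, adjusted p = 0.00105). Hexa, a subunit of beta-hexosaminidase, was at 9.96 and 9.74 and then at 8.25 and 8.35 (difference -1.55, SE 0.19, adjusted p = 4.84e-04). Gla, the alpha-galactosidase deficient in Fabry disease, fell by 1.65 (SE 0.26, adjusted p = 0.00220), and all 3 of these calls held under each scaling. Gusb, the beta-glucuronidase, fell by 0.96 (SE 0.21), a call that ended under quantile normalization (-0.48) and with a common interquartile range (-0.58). The other 6, Gaa, Naglu, Neu1, Sgsh, Arsa and Arsb, were not called, with differences from -0.61 to 0.30. Among genes for lipid breakdown the ceramidase Asah1 (-1.41, SE 0.44) and the cholesterol carrier Npc2 (-0.94, SE 0.23) were lower, but neither kept its call under quantile normalization or a common interquartile range. Psap, the precursor of the saposins that present lipids to hydrolases, Ppt1, a palmitoyl thioesterase, and Lipa, the acid lipase, were not called. Tpp1 fell by 1.10 (SE 0.29, adjusted p = 0.0234), likewise without a call under those 2 scalings.

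Of the 14 proton pump genes 12 were called lower at day 50, against 14.5% of all genes. The largest difference of any member was that of Atp6v0d2, a V0 subunit best known from osteoclasts and macrophages. It was at 10.68 and 9.81 at day 19 and at 5.39 and 5.17 at day 50. The day 50 values lay at the dim end of the scale, and the difference was -4.96 (SE 0.30, adjusted p = 1.22e-05), a 31.2-fold lower level. Its widely expressed counterpart Atp6v0d1 was at 9.95 and 9.85 and then at 7.02 and 8.53 (difference -2.12, SE 0.38, adjusted p = 0.00410). Atp6ap2, an accessory protein also known as the prorenin receptor, was at 9.40 and 9.14 and then at 7.02 and 7.39 (difference -2.07, SE 0.19, adjusted p = 1.28e-04). Calls for these 3 genes held under each scaling, and those of the other pump genes did not. The other accessory protein, Atp6ap1, was called lower (-0.79, SE 0.18, adjusted p = 0.0122) but was at 0.04 with a common interquartile range.

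In the V1 sector all 7 subunits were lower at day 50, from -0.78 (Atp6v1d, part of the central stalk) to -1.58 (Atp6v1a, the catalytic subunit), with a median of -1.19. The 7 differences were negative under median centring and quantile normalization, but with a common interquartile range those of Atp6v1d and Atp6v1g1 were 0.37 and 0.12, and Atp6v1h (-0.70, adjusted p = 0.0321) was the V1 gene still called. Atp6v1a was at 10.48 and 10.27 at day 19 and at 8.27 and 9.33 at day 50. Both day 50 values lay below both day 19 values, as was so for each of the 7. In the V0 sector Atp6v0a1, a subunit that helps form the proton path, fell by 1.36 (SE 0.25), a call that ended with a common interquartile range (-0.35). Atp6v0e was not called (-0.31) and was higher with a common interquartile range (1.01). Atp6v0b, a proteolipid of the proton-carrying ring, differed between the day 50 arrays: it was at 10.73 and 10.54 at day 19 and at 8.48 and 12.62 at day 50. The difference was -0.08 (SE 0.94). Without the first day 50 array it was 1.99 and called higher, and without the second it was -2.16 and called lower.

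**Figure D2:**
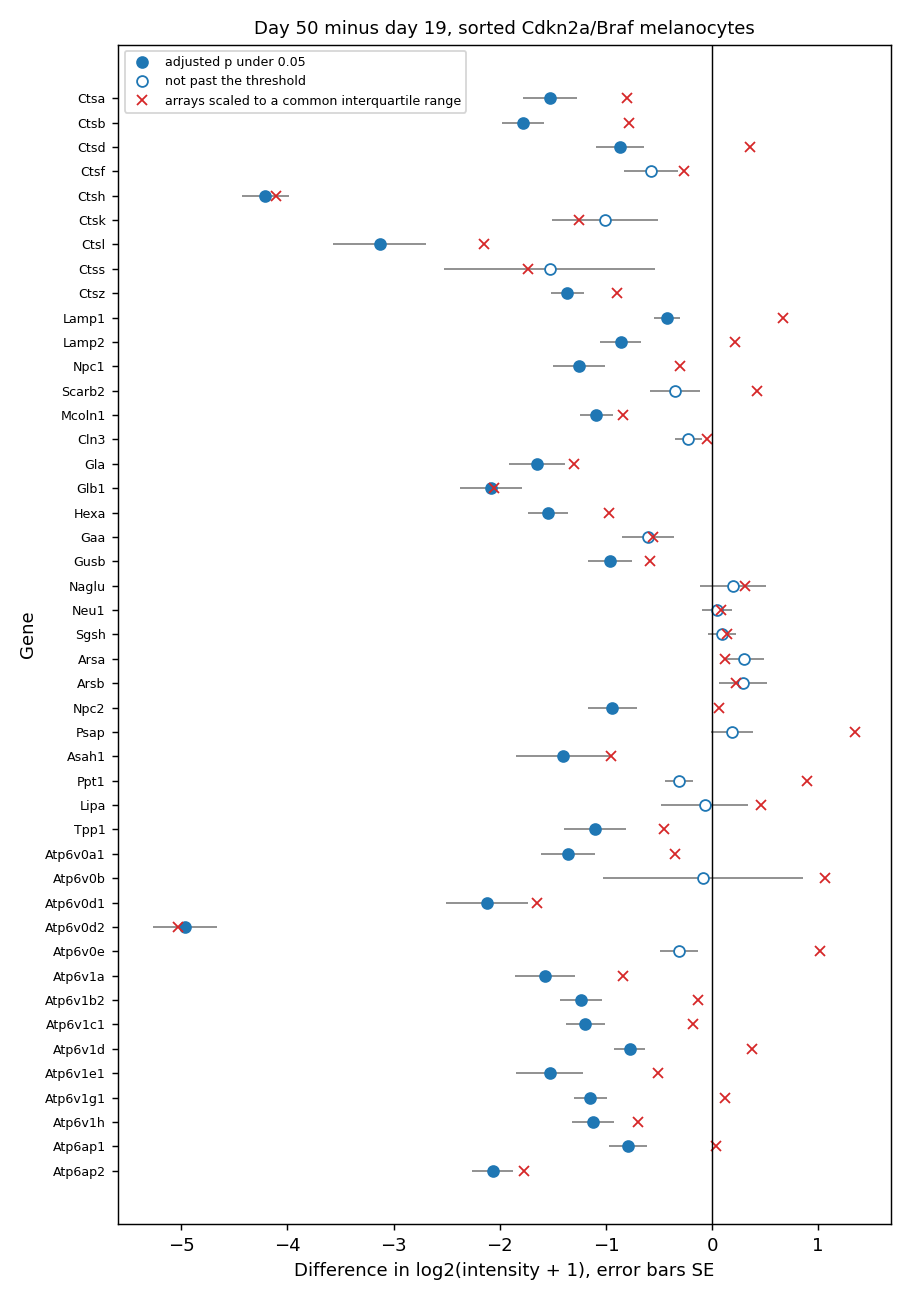
Difference in log2(intensity + 1) between Cdkn2a/Braf melanocytes at day 50 and at day 19 for each gene, with the SE as bars, filled points for adjusted p under 0.05, and crosses for the same difference after scaling arrays to a common interquartile range. Atp6v0d2 (-4.96), Ctsh (-4.21) and Ctsl (-3.13) stand farthest to the left, and crosses lie to the right of 0 for several genes such as Lamp1 and Atp6v0e.

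Other cell types moved between the same arrays. At day 50 the summed intensity of 6 keratinocyte markers was 10130 to 14230 against 1866 to 2074 at day 19, that of 6 fibroblast markers 3931 to 4682 against 752 to 869, and that of 5 endothelial markers 781 to 2279 against 299 to 322. Of these lists 2 of 6, 5 of 6 and 5 of 5 markers were called higher (11.1% of all genes), and 4 of 8 melanocyte markers were called lower (14.5%). Marker calls were not examined under other scalings. Osteoclast markers, given here because Atp6v0d2 is known from that cell, were dim, with 5 markers summing to 298 to 309 at day 19 and 438 to 460 at day 50. Of these 3 of 5 were called higher, with differences of the 5 from 0.36 to 0.61. Both day 50 arrays lay above both day 19 arrays in all 5, as in 45.9% of all genes. Macrophage markers summed to 575 to 950 at day 50 and 358 to 692 at day 19. Only 1 of 9 was called higher, 4 of 9 differences were below 0, and the median was 0.05. The largest was that of Cd14 (2.06). What part these cells had in the differences of the lysosomal genes was not tested.

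Genes of the lysosome outside the set were examined from a list of 67, of which 59 were measured. Their calls were not examined under other scalings of the arrays. At day 50 23 were lower and 2 higher, against 14.5% and 11.1% of all genes. Their median was -0.45, and that of all genes was 0.17. The lower ones included the proteases Ctsc (-2.99, SE 0.31) and Lgmn (-2.70, SE 0.18), the fucosidase Fuca1 (-2.74, SE 0.26), and Hgsnat, which acetylates heparan sulfate in the lysosome (-2.60, SE 0.23). Atp6v1f was the 1 of 10 further pump subunits called (-1.97, SE 0.24). Of the transcription factors Tfeb and Tfe3 were not called (-0.05 and -0.08), Mitf was lower (-0.52, SE 0.17, adjusted p = 0.0468) and Tfec was higher (0.55, SE 0.16, adjusted p = 0.0372), from 4.80 and 4.84 to 5.44 and 5.30, at the dim end of the scale in both groups. Of the 8 members with TCACGTGA in their promoter window 6 were lower at day 50, and of the 28 members with a window and no such motif 14 were lower. Cln3 and Atp6v0e were the 2 with TCACGTGA that were not called. Of the 6 that were lower, Ctsa, Gla, Mcoln1 and Atp6v0d1 kept their calls under each scaling. The calls of Ctsd and Atp6v1a ended with a common interquartile range (0.36 and -0.84). A longer form of TCACGTGA was also searched. It lay in the window of Cln3 alone, and of the 35 members with a window and without it 20 were lower. With the shorter core CACGTG 9 of 17 members were lower at day 50, and without it 11 of 19. With CATGTG 3 of 8 were lower, and without it 17 of 28. Whether any motif goes with the calls was not tested.

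The comparison of Cdkn2a/Braf with Cdkn2a only melanocytes at day 19 sets melanocytes that differ by the Braf allele side by side, before growth arrest. No member was called: 0 of 45 were higher or lower, against 0.236% and 0.0552% of all genes (0.291% in all), and 4 of 45 members had an unadjusted p under 0.05, against 7.25% of all genes. The median difference was 0.03, that of all genes 0.02, and the members lay between -0.38 and 0.89. The 4 were Atp6ap2 (0.63, SE 0.19, adjusted p = 0.378), Gusb (0.52, SE 0.21, adjusted p = 0.612), Cln3 (0.42, SE 0.13, adjusted p = 0.391) and Ppt1 (0.31, SE 0.14, adjusted p = 0.672). In each of them both Cdkn2a/Braf arrays lay above both Cdkn2a only arrays, as was so for 9 members and for 23.1% of all genes, while 8 members lay the other way (17.5% of all genes). Atp6ap2, for example, was at 9.40 and 9.14 with the Braf allele and at 8.87 and 8.42 without it. The largest value was that of Ctss (0.89, SE 0.99), a cathepsin of antigen-presenting cells, and its replicates were split within both groups, at 5.38 and 9.15 with the Braf allele and 5.21 and 7.53 without it. The arrays with the higher Ctss were also those with the higher macrophage marker sum in their group, 692 against 358 and 653 against 332. At day 50 the order was the other way, with Ctss at 5.83 and 5.63 and sums of 575 and 950. None of the 59 other lysosome genes was called either, and 9 had an unadjusted p under 0.05.

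Cdkn2a/Braf/Lkb1 melanoma was set against Cdkn2a/Braf melanoma, which differs by the Lkb1 alteration. Ctsh alone was called among the 45 members, higher in Cdkn2a/Braf/Lkb1 melanoma, against 1.83% of all genes higher, 0.732% lower and 2.56% called in all. It was at 9.63 and 9.19 with the Lkb1 alteration and at 8.34 and 8.10 without it. The groups did not overlap and the difference was 1.19 (SE 0.22, adjusted p = 0.0218). The call ended under quantile normalization and with a common interquartile range (0.85, adjusted p = 0.106), and without the second Cdkn2a/Braf or the first Cdkn2a/Braf/Lkb1 melanoma, while 5 members were called without either day 50 array, which enters the shared estimate of the spread. Next in size were Atp6v0a1 (1.01, SE 0.25, adjusted p = 0.0662), Gusb (0.89, SE 0.21, adjusted p = 0.0569), Gla (0.88, SE 0.26, adjusted p = 0.109) and Atp6v0d2 (0.87, SE 0.30, adjusted p = 0.151). In each of the 4 both Cdkn2a/Braf/Lkb1 arrays lay above the other pair, as was so for 20 members and for 24.6% of all genes, against 2 members the other way (28.9%). An unadjusted p under 0.05 was found for 9 of 45 members and for 19.2% of all genes.

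All 14 proton pump differences in this comparison were above 0 and none was called, with medians of 0.68 in V0, 0.16 in V1 and 0.21 for the accessory proteins. With a common interquartile range 8 of the 14 turned below 0, among them Atp6v0e (-0.40) and Atp6v1g1 (-0.30). Macrophage markers summed to 5508 and 7558 in the Cdkn2a/Braf/Lkb1 tumours and 3364 and 3648 in the Cdkn2a/Braf tumours, with 9 of 9 markers higher in mean and 1 called. Other lists had as many calls: 1 of 4 neutrophil, 1 of 6 fibroblast and 1 of 5 T cell markers were higher, and 1 of 4 mast cell markers lower. Of the 59 other lysosome genes 3 were higher and 0 lower, against 1.83% and 0.732% of all genes. The 3 were Tfec (1.95, SE 0.16, adjusted p = 8.76e-04), a relative of Tfeb found in macrophages, the channel Mcoln2 (1.71, SE 0.19) and the macrophage glycoprotein Cd68 (1.65, SE 0.30). What part macrophages or other cell types had in these differences was not tested.

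Both melanoma groups were compared with the Lkb1/Braf proliferations. These comparisons share the 3 proliferation arrays, so their values are given side by side and not as support for each other. In Cdkn2a/Braf melanoma 15 members were higher and 2 lower, against 12.6% and 8.88% of all genes (21.5% in all), with a median of 0.37 where all genes had -0.02. Its arrays lay wholly above the proliferations for 29 members (30.3% of all genes) and wholly below for 6 (27.7%). In Cdkn2a/Braf/Lkb1 melanoma 23 were higher and 1 lower, against 20% and 20.6% of all genes (40.6% in all), with a median of 0.56 where all genes had -0.04. Its arrays lay wholly above for 36 members (34% of all genes) and wholly below for 5 (35.8%). Of the 9968 genes above the median level, fitted alone, 2226 were higher and 674 lower in Cdkn2a/Braf melanoma (median 0.25). In Cdkn2a/Braf/Lkb1 melanoma 3256 of them were higher and 1177 lower (median 0.36). Of the 44 members among them 14 were higher and 2 lower in the first (median 0.40). In the second 22 were higher and 1 lower (median 0.59). The excess of higher calls depended on the scaling. Quantile normalization gave 5 higher and 3 lower in each comparison, and a common interquartile range gave 5 higher and 8 lower in the first and 6 higher and 9 lower in the second. The 17 calls of either direction in the first comparison became 6 without either Cdkn2a/Braf melanoma array, 10 without the first proliferation array and 11 without the second. The 24 calls in the second became 10 without the first Cdkn2a/Braf/Lkb1 melanoma and 15 without the second proliferation array.

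Atp6v0d2 had the largest difference of the 45 members in both comparisons, and it was lower in the melanomas. It was at 9.14, 9.14 and 9.64 in the proliferations, at 5.47 and 5.80 in Cdkn2a/Braf melanoma and at 6.24 and 6.78 in Cdkn2a/Braf/Lkb1 melanoma. Every melanoma array lay below every proliferation array, with a wide gap between them. The difference was -3.67 (SE 0.27, adjusted p = 4.03e-05), 12.7-fold lower, for Cdkn2a/Braf melanoma and -2.80 (SE 0.27, adjusted p = 8.48e-05), 6.95-fold lower, for Cdkn2a/Braf/Lkb1 melanoma, and both were called under each scaling. Across all 6 groups its means ran from 10.6 in Cdkn2a only and 10.2 in Cdkn2a/Braf day 19 melanocytes through 9.31 in the proliferations to 6.51 and 5.64 in the melanomas and 5.28 at day 50. Among neighbours in that order that were compared, no difference was called between the 2 day 19 groups (-0.32, SE 0.30, adjusted p = 0.986), between the 2 melanoma groups, or between Cdkn2a/Braf melanoma and day 50 (0.36, SE 0.30, adjusted p = 0.362), and the day 19 melanocytes were not tested against the proliferations. The melanocyte marker sum was also higher in the proliferations than in the melanomas, 3224 to 3631 against 436 to 773, and was 23800 to 30530 at day 50. Its part in the levels of Atp6v0d2 was not tested.

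Gusb and Atp6ap2 were the 2 members higher in both melanoma groups under each scaling. Gusb was at 7.27, 7.35 and 7.14 in the proliferations, at 8.33 and 8.41 in Cdkn2a/Braf melanoma and at 9.40 and 9.12 in Cdkn2a/Braf/Lkb1 melanoma. The 3 groups did not overlap. Its difference from the proliferations was 1.12 (SE 0.19, adjusted p = 0.00284) in the first and 2.01 (SE 0.19, adjusted p = 7.03e-05) in the second. Atp6ap2 was at 7.50, 7.16 and 7.46 in the proliferations, at 8.47 and 8.43 in Cdkn2a/Braf melanoma and at 8.52 and 8.46 in Cdkn2a/Braf/Lkb1 melanoma (1.08, SE 0.18, and 1.12, SE 0.18). Glb1 (1.06, SE 0.27), the sulfatase Arsb (1.08, SE 0.21) and Ppt1 (1.10, SE 0.12) were called under each scaling in Cdkn2a/Braf melanoma. The Glb1 call ended without either melanoma array or the first proliferation array, and the Arsb call without the first melanoma array (0.93, adjusted p = 0.0534). In Cdkn2a/Braf/Lkb1 melanoma those 3 differed by 1.00, 0.92 and 1.15 and kept their calls under fewer scalings.

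Medians by role depended on the scaling. For the 5 lipid genes the median was 0.87 in Cdkn2a/Braf melanoma and 1.15 in Cdkn2a/Braf/Lkb1 melanoma, and with a common interquartile range it was 0.29 and 0.17. Npc2 (0.87 and 1.26), Asah1 (1.39 and 1.27) and Ppt1 were called in both. Neither Npc2 nor Asah1 was called in Cdkn2a/Braf melanoma under quantile normalization or a common interquartile range, nor was Asah1 in Cdkn2a/Braf/Lkb1 melanoma, where Npc2 was at 0.17 with a common interquartile range and not called. Of the membrane proteins Lamp1, Lamp2 and Scarb2 were higher in both, but with a common interquartile range Lamp1 was at -0.10 and -0.59 and Lamp2 at -0.10 and -0.56, and Scarb2 lost both calls. Cathepsins had medians of -0.02 and 0.56, or -0.72 and -0.60 with a common interquartile range. Ctsz, a carboxypeptidase, was higher in both (0.52 and 0.86), though not with quantile normalization or a common interquartile range, and Ctsh was lower in Cdkn2a/Braf melanoma (-0.63, SE 0.20, adjusted p = 0.0492) and higher in Cdkn2a/Braf/Lkb1 melanoma (0.56, SE 0.20, adjusted p = 0.0474). The former call ended without any single melanoma or proliferation array of that comparison. The Ctsh call in the latter ended under quantile normalization (-0.03) and with a common interquartile range (-0.14). Ctsk, Ctss and Ctsl were called in neither.

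**Figure D3:**
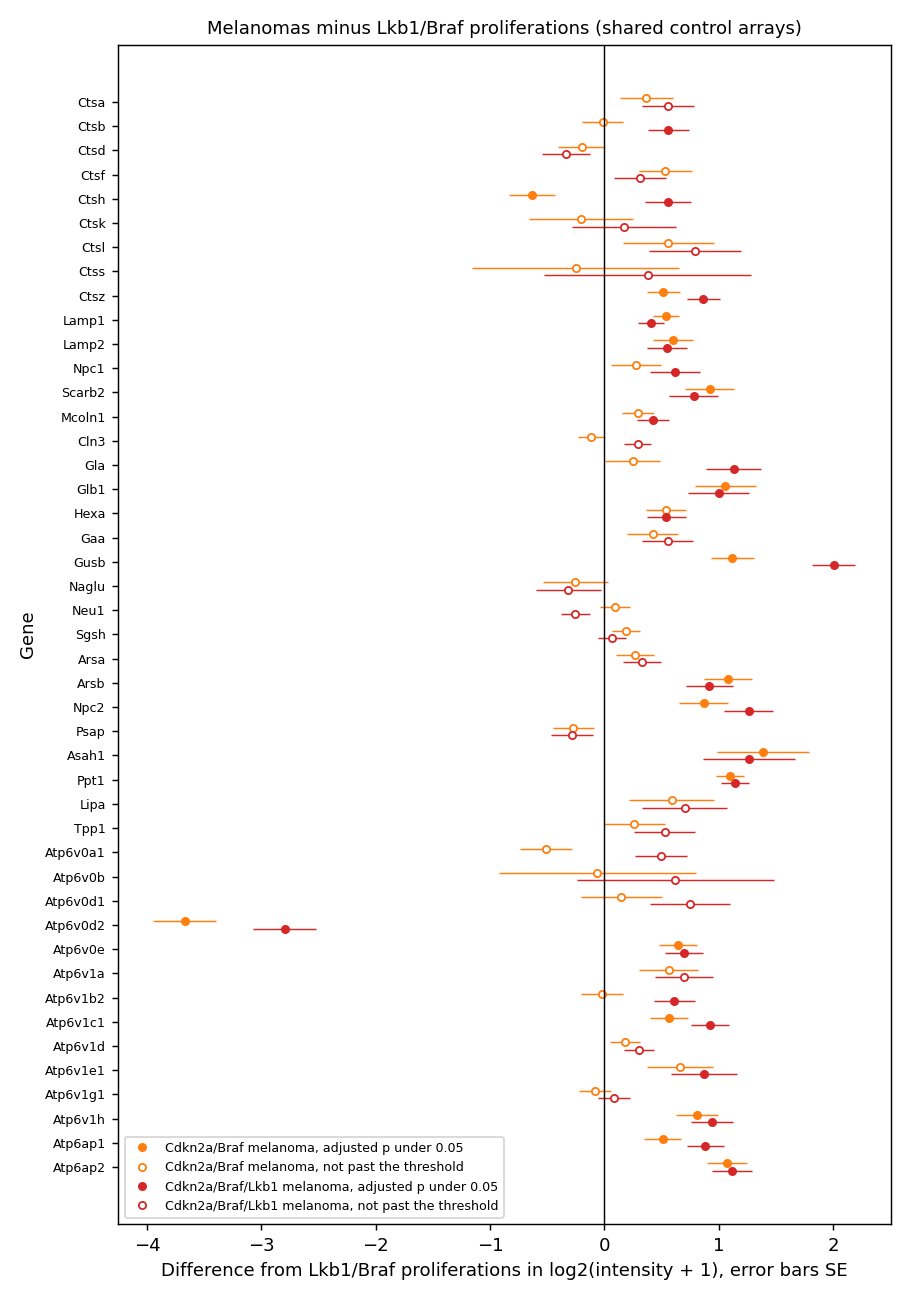
Difference of each melanoma group from the Lkb1/Braf proliferations in log2(intensity + 1), with the SE as bars and filled points for adjusted p under 0.05; both series share the proliferation arrays. Atp6v0d2 lies far to the left in both (-3.67 and -2.80), and Gusb is farthest to the right in Cdkn2a/Braf/Lkb1 melanoma (2.01).

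Makeup differed between these tissues. Keratinocyte markers summed to 17680 to 18860 in the proliferations and to 443, 5442, 407 and 958 in the 4 melanoma arrays, and adipocyte markers to 2251 to 3103 against 194 to 504. Macrophage markers summed to 2210 to 2933 in the proliferations. Among the other 59 lysosome genes 11 were higher and 6 lower in Cdkn2a/Braf melanoma, against 12.6% and 8.88% of all genes. In Cdkn2a/Braf/Lkb1 melanoma 21 were higher and 9 lower, against 20% and 20.6% of all genes. Igf2r, the receptor that sorts hydrolases tagged with mannose 6-phosphate, was at 7.44 to 7.61 in the proliferations and at 10.51, 9.69, 10.28 and 9.49 in the melanoma arrays (2.58, SE 0.27, and 2.37, SE 0.27). The pump subunits Atp6v1c2 (-1.77 and -2.24) and Atp6v0a4 (-1.38 and -2.10), both known from epithelia, were lower in the melanomas. What part the makeup had in any of these values was not tested.

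Cdkn2a/Braf melanoma was also set against growth-arrested day 50 melanocytes of the same genotype. Tissue and sorted cells cannot be told apart from stage here, and the day 50 arrays are those of the comparison with day 19. Of the 45 members 15 were higher in melanoma and 3 lower, against 15.5% and 16.9% of all genes (32.4% in all), with a median of 0.34 where all genes had -0.15. The arrays of melanoma lay wholly above those of day 50 for 22 members (25.7% of all genes) and wholly below for 6 (42.8%). Of the 9968 genes above the median level, fitted alone, 2523 were higher and 790 lower, with a median of 0.22. The 44 members among them had 15 higher and 3 lower, with a median of 0.34. The median of the 45 members was -0.01 under quantile normalization and -0.19 with a common interquartile range. Their calls there were 7 higher with 5 lower and 7 higher with 13 lower. The 18 calls became 11 without the second melanoma array and 4 with only the 4 arrays compared. Called under each scaling were Ctsh, Ctsk, Ctss, Glb1, Arsb and Atp6ap2, all higher, and Npc1, Atp6v0a1 and Atp6v1b2, all lower. The Npc1 call ended without the second day 50 array (-0.42, adjusted p = 0.102) or either melanoma array.

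Ctss, Ctsk and Arsb were at their lowest in sorted cells. Ctss was at 10.72 and 10.67 in Cdkn2a/Braf melanoma, 11.39 and 11.26 in Cdkn2a/Braf/Lkb1 melanoma, 11.04, 10.85 and 10.94 in the proliferations, and 5.83 and 5.63 at day 50. Its difference between Cdkn2a/Braf melanoma and day 50 was 4.96 (SE 0.99, adjusted p = 0.00628), 31.1-fold. Ctsk, the collagen-degrading cathepsin of osteoclasts, was at 8.54 and 9.85 in Cdkn2a/Braf melanoma and at 5.46 and 5.97 at day 50 (3.48, SE 0.50, adjusted p = 0.00109). Arsb, which removes sulfate from dermatan sulfate, was at 8.91 and 8.62 and at 6.67 and 6.55 (2.15, SE 0.23, adjusted p = 1.87e-04). In all 3 every tissue array lay above every sorted array. Macrophage markers summed to 2210 to 7558 in the 7 tissue arrays and 332 to 950 in the 6 sorted arrays. Of these 7 of 9 were called higher in Cdkn2a/Braf melanoma than at day 50 (15.5% of all genes). Macrophages were not alone in this. Fibroblast markers summed to 7222 to 9672 in tissue and 752 to 4682 in sorted arrays. Mast cell markers summed to 301 to 3122 and 108 to 163, and neutrophil markers to 294 to 3022 and 149 to 229. What part any of these cell types had in these 3 genes was not tested.

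**Figure D4:**
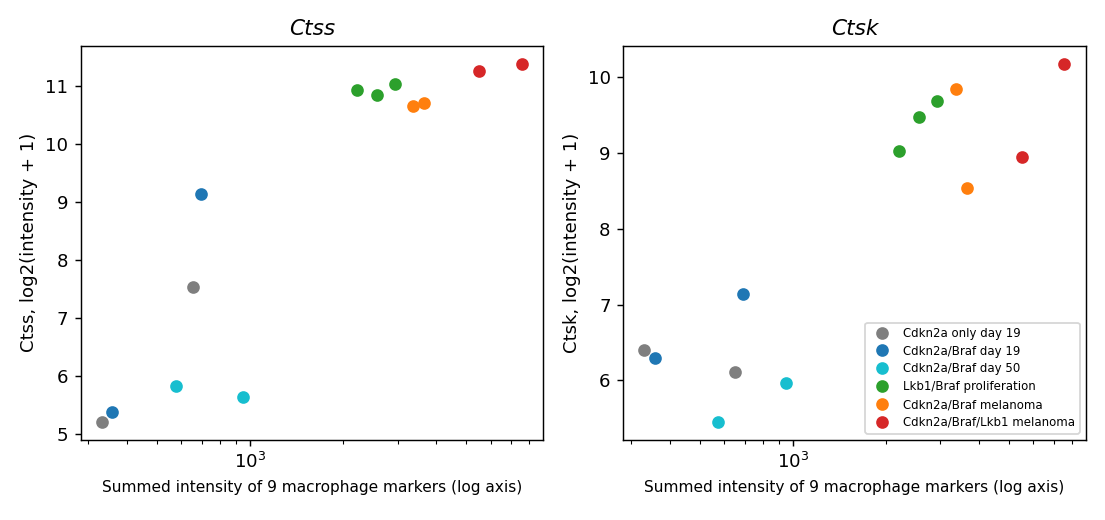
Level of Ctss (left) and Ctsk (right) in log2(intensity + 1) against the summed intensity of 9 macrophage markers on a log axis, 1 point per array coloured by group. The 7 tissue arrays lie at the upper right, and among the 4 day 19 arrays those with the higher Ctss (9.15 and 7.53) have marker sums of 692 and 653. The day 50 arrays have Ctss at 5.83 and 5.63 with marker sums of 575 and 950.

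Proton pump subunits went the other way in part. Atp6v1b2 was at 8.29 and 8.44 in Cdkn2a/Braf melanoma and at 10.44 and 9.83 at day 50 (-1.77, SE 0.20, adjusted p = 2.75e-04). Atp6v0a1 was at 8.27 and 8.17 and at 9.26 and 10.23 (-1.53, SE 0.25, adjusted p = 0.00230). Npc1 was likewise lower in melanoma (8.63 and 8.88 against 9.18 and 10.03). All 3 had also been called lower at day 50 than at day 19, a call that ended with a common interquartile range. Ctsh, in contrast, was at 8.34 and 8.10 in melanoma against 5.73 and 6.30 at day 50 (2.20, SE 0.22, adjusted p = 1.45e-04), and Glb1 at 8.15 and 7.94 against 6.40 and 6.26 (1.72, SE 0.29, adjusted p = 0.00279). Of the 59 other lysosome genes 21 were higher and 7 lower, against 15.5% and 16.9% of all genes. Lgmn (2.30, SE 0.18), Ctsc (2.38, SE 0.31) and Hgsnat (2.20, SE 0.23) were higher in melanoma, and the channel Mcoln3 was lower (-5.71, SE 0.28).

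**Figure D5:**
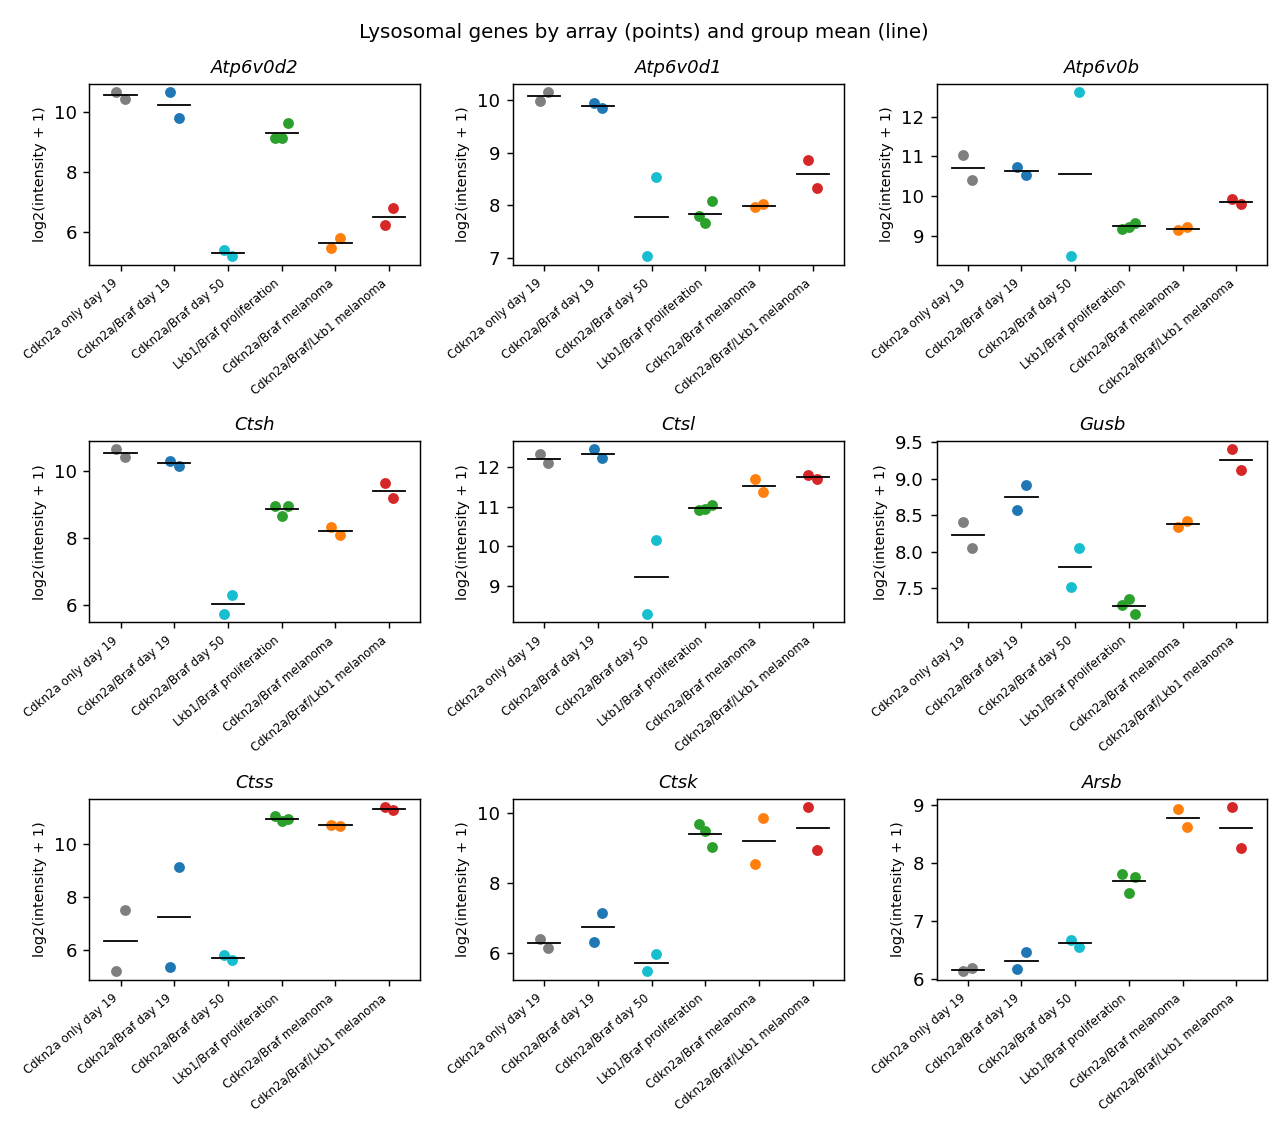
Level of 9 genes in log2(intensity + 1) on each array (points) with the group mean (line), each panel on its own axis that does not start at 0. Atp6v0d2 is high in day 19 melanocytes and proliferations and low at day 50 and in melanoma, Atp6v0b at day 50 is split between 8.48 and 12.62, and Ctss, Ctsk and Arsb are high in the 3 tissue groups.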

How the data were processed

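RNA was isolated on Qiagen RNeasy columns and prepared for hybridisation using NuGEN kits (Ovation V2, Encore), per the labels' protocols. Intensities were summarised per probe set by RMA, per the submitters' processing notes, and the deposited values are linear. How RMA values, which are usually log2, became linear, and the genome build, are not given in the sources used here. Levels are log2(intensity + 1) computed from the deposited intensities, which ran from 3.35 to 17698. Precision is limited by how many arrays there are.

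The platform table lists 22961 of 34760 probe sets, 21640 with 1 gene and 1321 with several. Only those with 1 gene were used, 21553 of them matched to current symbols by Entrez identifier, and 954 of the 19937 genes had more than 1 set. Limma 3.58.1 in R 4.3.3 fitted 6 group means to all 13 arrays (7 residual degrees of freedom), with two-sided moderated tests and p-values adjusted by Benjamini-Hochberg across the whole table. Same-numbered replicates were checked for pairing: correlations of their deviations lay between -0.117 and 0.0933 in 30 pairs, 0 of them above 0.1, so no pairing was used. The fit was tested on simulated data.

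The members, the other lysosome genes, the markers and the genes named (the members) were chosen with earlier results of these data known. Alternatives were 3 scalings of the arrays, a pseudocount of 16, the mean of probe sets, a filter on dim genes, another moderation, fewer groups in the fit, the replicate block and leaving out each array. Promoter windows are from RefSeq (GRCm38.p6).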

Additional observations from a re-analysis of the deposited data

How the results depend on the processing

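The absence of calls for the Braf allele at day 19 held in all 23 alternatives, and the number of members differing among the 6 groups stayed between 32 and 40 in 21. For day 50 against day 19 the 29 calls became 19 under quantile normalization, 17 with a common interquartile range, 15 with sorted arrays only and 5 with the compared arrays only, and leaving out single arrays gave 22 to 30. For Cdkn2a/Braf/Lkb1 against Cdkn2a/Braf melanoma the 1 call became 2 under median centring, 5 with tissue arrays only, and 0 under quantile normalization, a common interquartile range, the replicate block and the compared arrays only (leaving out single arrays, 0 to 5). For Cdkn2a/Braf melanoma against proliferations the 17 calls became 8 under quantile normalization and 11 with the replicate block (6 to 22 without single arrays). For Cdkn2a/Braf/Lkb1 melanoma against proliferations the 24 became 8 under quantile normalization and 15 with a common interquartile range (10 to 32). For melanoma against day 50 the 18 became 4 with the compared arrays only (11 to 24). The replicate block gave 27, 18 and 16 calls in the remaining comparisons. No pairing by replicate number was seen in the correlations of deviations. Fits with the compared arrays only, or without an array, have fewer residual degrees of freedom, and a lone array is then assumed to vary like the other groups.

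Directions turned mostly under the common interquartile range, and the cause was not tested. Listed are the differences that turned and were called in at least 1 of the 2 settings, and others, called in neither, also turned. For day 50 against day 19 it gave Ctsd 0.36, Lamp1 0.67, Lamp2 0.22, Npc2 0.0633, Ppt1 0.90, Atp6v0e 1.01, Atp6v1d 0.37, Atp6v1g1 0.12 and Atp6ap1 0.0407. For Cdkn2a/Braf melanoma against proliferations it gave Lamp1 -0.10, Lamp2 -0.10, Atp6v0e -0.12 and Atp6v1d -0.44. For Cdkn2a/Braf/Lkb1 melanoma against proliferations it gave Ctsb -0.65, Ctsh -0.14, Lamp1 -0.59, Lamp2 -0.56, Hexa -0.0541, Atp6v0e -0.52, Atp6v1d -0.68, Atp6v1e1 -0.0212 and Atp6v1g1 -1.24, and quantile normalization gave Ctsh -0.0347, Lamp1 -0.0891, Hexa -0.0446 and Mcoln1 -0.0396. For melanoma against day 50 it gave Ctsb -0.0636, Ctsd -0.81, Lamp1 -0.90, Lamp2 -0.40, Npc2 -0.19, Atp6v0e -1.25, Atp6v1c1 -0.83, Atp6v1g1 -0.84 and Atp6ap1 -0.67. The median of the members turned to -0.0897 between the melanoma groups, and for melanoma against day 50 to -0.19, or -0.009 under quantile normalization. Atp6v0b was at 1.99 for day 50 against day 19 without the first day 50 array and at -2.16 without the second, and for melanoma against day 50 at -3.45 and 0.70. The median of all genes moved from 0.17 to 0.06 under quantile normalization and -0.05 with a common interquartile range for day 50 against day 19, and with the latter from -0.02 to 0.14 and from -0.04 to 0.16 for the melanomas against proliferations.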
